A study of Mus musculus with 4 samples.

Results

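The cell cycle and proliferation genes described here are 35 named mouse genes, 14 of S phase and the G1/S transition and 21 of mitosis and G2/M. They were chosen by name: every non-control probe that the array annotates with a gene symbol of this set was taken, which gave 61 probes, and each gene was represented by its brightest probe. The array held 27195 named genes in all. Of the 35 genes, 34 were well above background on all 4 arrays. The cyclin gene Ccne2 was not well above background on any array, with processed signals of 2.31, 10.5, 2.61 and 6.59, and it enters no median or count below.

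The study crossed surgery with an inhaled agent in C57BL/6J mice and measured lung RNA on 1-colour Agilent arrays. The 4 groups were sham/PBS (sham surgery, inhaled PBS), sham/PPE (sham surgery, inhaled PPE), ORX/PBS (ORX, inhaled PBS) and ORX/PPE (ORX, inhaled PPE), each 3 weeks after the agent was given. ORX is read as orchiectomy and PPE as porcine pancreatic elastase, since the title of the series speaks of testosterone deficiency and of emphysema induced by elastase. Each group was 1 array of RNA pooled from 5 mice, so there is no replicate error, and every difference below is a difference between pools. All 12 lung epithelial markers looked for were well above background on every array, as were all 9 endothelial markers.

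Cells that enter S phase load the MCM helicase onto origins, supply deoxynucleotides and copy their DNA behind the sliding clamp. These genes are classic targets of E2F transcription factors. Genes of G2 and mitosis (Cdk1 with its cyclins, the mitotic kinases, kinesins, kinetochore proteins and partners of the anaphase-promoting complex) switch on later. They are controlled by the DREAM and MuvB complexes at the cell cycle homology region (CHR) of their promoters, and by NF-Y at CCAAT boxes. Most cells of adult lung rest outside the cycle. In whole lung RNA, a difference in the number of cycling cells and a difference in RNA per cell cannot be told apart.

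The promoters of 5 members are shown because these genes had among the largest differences between the PBS arrays and because they show the CHR letters of mitotic members and the E2F letters of the helicase genes. Each sequence is the 180 bases before the start of the gene in RefSeq on build GRCm38.p6, 5′ to 3′ on the gene's strand. Capitals mark the CHR letters (TTTGAA or TTCGAA), the E2F letters (TTTCCCGC, TTTGGCGC, TTTCGCGC or TTTGCCGC) and CCAAT, on either strand, so that TTCAAA and ATTGG are reverse matches. Overlapping E2F matches run together in Mcm5 and Mcm6. Cdc20 lies at chr4:118437344-118437523 on the minus strand, Cdk1 at chr10:69352913-69353092 on the minus strand, Kif11 at chr19:37376202-37376381 on the plus strand, Mcm5 at chr8:75109329-75109508 on the plus strand and Mcm6 at chr1:128359706-128359885 on the minus strand.
Cdc20: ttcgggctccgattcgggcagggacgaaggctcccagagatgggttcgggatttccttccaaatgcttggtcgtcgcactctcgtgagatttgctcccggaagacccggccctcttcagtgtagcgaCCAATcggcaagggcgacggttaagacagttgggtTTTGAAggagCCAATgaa
Cdk1: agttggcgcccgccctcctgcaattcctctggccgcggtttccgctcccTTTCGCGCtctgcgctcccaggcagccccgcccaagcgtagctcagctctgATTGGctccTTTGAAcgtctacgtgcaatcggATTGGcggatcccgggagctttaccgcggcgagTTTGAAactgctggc
Kif11: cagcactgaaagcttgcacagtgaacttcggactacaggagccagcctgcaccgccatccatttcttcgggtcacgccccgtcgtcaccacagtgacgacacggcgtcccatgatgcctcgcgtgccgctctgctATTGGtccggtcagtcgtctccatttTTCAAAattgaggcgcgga
Mcm5: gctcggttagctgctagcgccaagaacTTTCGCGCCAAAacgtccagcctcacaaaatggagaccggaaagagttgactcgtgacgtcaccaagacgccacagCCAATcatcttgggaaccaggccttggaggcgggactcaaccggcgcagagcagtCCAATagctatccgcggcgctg
Mcm6: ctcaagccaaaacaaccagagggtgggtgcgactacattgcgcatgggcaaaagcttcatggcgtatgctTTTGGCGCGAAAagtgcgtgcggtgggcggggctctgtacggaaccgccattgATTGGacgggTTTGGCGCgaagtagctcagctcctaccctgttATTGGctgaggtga

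Over windows of 300 bases, 250 before and 50 after the start, RefSeq promoters were matched for 29 of the 35 members. CHR letters were found in 13 of 17 mitotic and G2/M members, 76.5%, in 2 of 12 S phase and G1/S members, 16.7%, and in 21.7% of all 27025 genes with a window. E2F letters were found in 4 of the 12 S phase members, the helicase genes Mcm3, Mcm5, Mcm6 and Mcm7. Of the 17 mitotic members only Cdk1 had them, and of all genes 2.6%. CCAAT was present in 15 of 17 mitotic members, 8 of 12 S phase members and 41.1% of all genes, and CHR with CCAAT in 13 of 17, 2 of 12 and 8.61%. Such a match is a description of letters and not a measured binding site.

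Signals are given below as a percent of the array's 75th percentile, the value by which each array was scaled, and differences as log2 differences of these scaled signals. The 75th percentiles were processed signals of 850.1 with PBS and 824.3 with PPE in sham mice, and 993.8 with PBS and 855.6 with PPE in ORX mice. Probes spotted many times had a median SD of 0.0324 to 0.0367 on the log2 scale within an array, which covers spots and not mice. The only test that 4 single arrays allow is an additive model of surgery and agent. In limma with Benjamini-Hochberg adjustment it called 0 of 20656 genes for PPE and 0 for ORX, where 1166 and 1633 genes had an unadjusted p below 0.05. Of the 34 members measured, 0 were called, and 2 and 3 had an unadjusted p below 0.05, against 5.64% and 7.91% of all genes. On simulated data for PPE over these 20656 genes, the fit called 0 of 50 genes altered 1.5-fold, 1 of 50 altered 2.5-fold, 35 of 50 altered 4-fold and 47 of 50 altered 8-fold, and 1.5-fold is a size that few members reached in any comparison.

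Across the 4 arrays most of the proliferation genes had the same highest array and most the same lowest array, each counted separately. ORX/PBS was the highest array for 25 of the 34 members, against 20.1% of all genes, and sham/PBS the lowest for 21, against 32.0% of all genes. Among the 13 S phase and G1/S members measured, ORX/PBS was highest for 9 and sham/PBS lowest for 10. Among the 21 mitotic and G2/M members, the numbers were 16 and 11. The median member lay 0.13 above its own mean over the arrays on ORX/PBS, 0.01 above it on ORX/PPE, 0.05 below it on sham/PPE and 0.11 below it on sham/PBS. After background correction by normexp, ORX/PBS was highest for 21 members and sham/PBS lowest for 22.

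**Figure D1:**
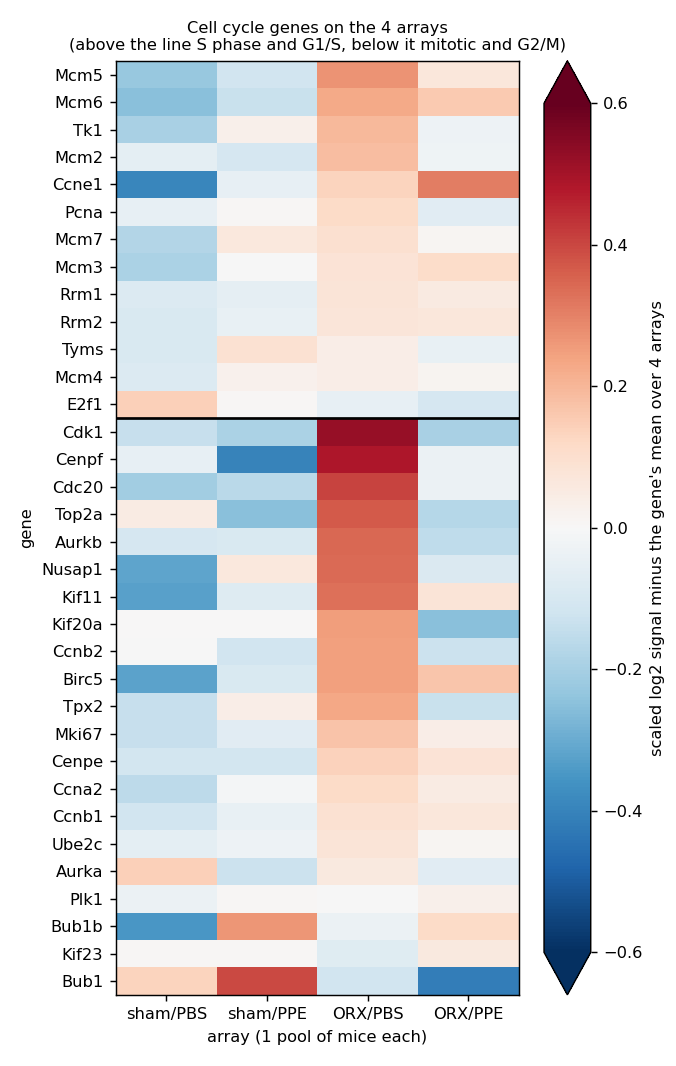
Heat map of the 34 measured cell cycle genes (rows) on the 4 arrays (columns), coloured by the scaled log2 signal minus the gene's mean over the 4 arrays; genes above the black line are S phase and G1/S members, those below it mitotic and G2/M members. ORX/PBS is the highest array for 25 genes and sham/PBS the lowest for 21, and the 9 genes highest on another array are Mcm3, Tyms, Ccne1, E2f1, Aurka, Plk1, Bub1, Bub1b and Kif23.

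All 6 subunits of the MCM2-7 helicase, which unwinds DNA at the fork, were higher on ORX/PBS than on sham/PBS, by 0.12 to 0.50. Mcm5 was at 39.5% of the 75th percentile with PBS and 42.7% with PPE in sham mice, and at 55.7% with PBS and 48.5% with PPE in ORX mice. Mcm6 was at 383%, 415%, 533% and 508% in the same order. For both genes the ORX arrays lay above the sham arrays, with ORX/PBS highest, and their differences between ORX/PBS and sham/PBS were 0.50 and 0.48. Under PPE, ORX stood 0.18 above sham for Mcm5 and 0.29 for Mcm6. The other subunits spanned less: Mcm4, at 0.12, had the smallest difference between the PBS arrays, and Mcm3 was highest on ORX/PPE instead, at 190% against 186% on ORX/PBS. PPE against PBS in ORX mice gave -0.21 for Mcm2, which was the lowest of the 6, and 0.03 for Mcm3, which was the highest. A further probe of Mcm6 with a far dimmer signal gave -0.09 between the PBS arrays and a further dim probe of Mcm7 gave -0.02, where the brightest probe of Mcm7 gave 0.28.

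The sliding clamp gene Pcna and the genes of deoxynucleotide synthesis were all higher on ORX/PBS than on sham/PBS, by 0.13 to 0.39. Pcna was at 741% with PBS and 771% with PPE in sham mice, and 830% with PBS and 731% with PPE in ORX mice. Tk1, the thymidine kinase of the salvage route, was at 36.1%, 42.2%, 47.2% and 40.5% in the same order. ORX/PBS was the highest array for both genes, and the difference between the PBS arrays was 0.16 for Pcna and 0.39 for Tk1. The ribonucleotide reductase subunits Rrm1 and Rrm2 both had 0.16 between the PBS arrays, and thymidylate synthase, Tyms, had 0.13 with its highest value, 114%, on sham/PPE. By their brightest probes all 5 of these genes were above 0 for PPE in sham mice and below 0 for PPE in ORX mice. Rrm1 (0.03 and -0.02) and Rrm2 (0.04 and -0.004) were close to 0 in both. A further probe of Tyms went the other way, at -0.11 and 0.15, with -0.10 between the PBS arrays. Another Tyms probe gave 0.13, -0.20 and 0.08 in the same order.

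At the G1/S transition the cyclin Ccne1 and the transcription factor E2f1 had differences of opposite sign, small ones for E2f1. Ccne1, which activates Cdk2 for entry into S phase, was at 19.3% with PBS and 24.6% with PPE in sham mice, and 27.8% with PBS and 31.5% with PPE in ORX mice. It was above 0 in all 4 comparisons, at 0.35 and 0.18 for PPE in sham and in ORX mice, and 0.53 and 0.36 for ORX under PBS and PPE. In the additive limma fit its ORX term was 0.44 with an unadjusted p of 0.0323 and a Benjamini-Hochberg adjusted p of 0.602. E2f1 was at 51.3%, 46.7%, 44.9% and 43.3%, below 0 in all 4 comparisons, and its differences of -0.05 to -0.19 were of the size seen between probes of the same gene.

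Cdk1, the kinase that drives entry into mitosis, was the member with the largest excess on ORX/PBS. Its signal was 5.27% of the 75th percentile with PBS and 5.09% with PPE in sham mice, and 8.34% with PBS and 5.07% with PPE in ORX mice. The other 3 arrays were nearly equal, so the difference between the PBS arrays, 0.66, and that of PPE in ORX mice, -0.72, rest on the ORX/PBS value. Its probe spans mm9 chromosome 10 from 68805423 to 68807832. The signal was dim, and normexp brought these differences to 0.24 and -0.27. Of its cyclin partners, Ccnb2 had the same shape at 47.9%, 44.4%, 57.0% and 44.0%. The differences of Ccna2 and Ccnb1 between the PBS arrays were 0.27 and 0.21, and those for PPE in ORX mice were -0.07 and -0.03.

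Of the members at least 1.5-fold apart between the PBS arrays, Cdc20 changed least under normexp. Cdc20, the activator of that complex at the metaphase to anaphase transition, was at 64.5% with PBS and 66.7% with PPE in sham mice, and 98.7% with PBS and 72.9% with PPE in ORX mice. The ORX/PBS array was high and the sham arrays lay close together, which gave 0.61 between the PBS arrays (0.59 with normexp) and -0.44 for PPE in ORX mice (-0.42 with normexp). The probe lies on mm9 chromosome 4 from 118105534 to 118105593. A further probe of Cdc20 gave 0.47 between the PBS arrays. Ube2c, the ubiquitin-conjugating enzyme of the complex, had 0.14 and -0.07.

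Mki67, which encodes the proliferation marker Ki-67, was at 124% with PBS and 130% with PPE in sham mice, and 154% with PBS and 140% with PPE in ORX mice. Both ORX arrays lay above both sham arrays, with 0.31 under PBS and 0.11 under PPE. Top2a, the topoisomerase that untangles sister chromatids, was at 36.8%, 29.9%, 45.9% and 31.6%, so that by this probe the PPE arrays were the low ones in both surgeries. Its differences for PPE were -0.30 in sham and -0.54 in ORX mice. Further probes gave 0.10 and -0.28 in sham and -0.62 and -0.20 in ORX mice, and the mean of its probes -0.16 and -0.45. The PPE term of the additive limma fit was -0.42 with an unadjusted p of 0.0429 and a Benjamini-Hochberg adjusted p of 0.862. Between the PBS arrays the other Top2a probes gave 0.68, 0.23 and, for the dimmest, -0.37, against 0.32 for the brightest.

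Among the mitotic kinases the members differed. Aurkb, the kinase of the chromosomal passenger complex, was at 6.20% with PBS and 6.25% with PPE in sham mice, and 8.47% with PBS and 5.99% with PPE in ORX mice. Like Cdk1 it was high on ORX/PBS alone, with 0.45 between the PBS arrays and -0.50 for PPE in ORX mice, which normexp brought to 0.15 and -0.17. A further dim probe of Aurkb gave -0.17 and 0.80 in these comparisons. Birc5, which encodes survivin of the same complex, was at 97.5%, 114%, 144% and 137% by its brightest probe. By that probe both ORX arrays lay above both sham arrays, with 0.57 under PBS and 0.26 under PPE. A dimmer probe of Birc5 gave 0.64 for ORX under PBS and -0.11 for ORX under PPE. The centrosomal kinase Aurka was highest on sham/PBS, at 38.6%, and lowest on sham/PPE, at 32.0%. Plk1, the polo-like kinase, varied least of these, from 40.1% to 42.0%.

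Spindle genes were dim and mostly highest on ORX/PBS. Nusap1, a microtubule-binding protein of the spindle, was at 12.7% with PBS and 16.5% with PPE in sham mice, and 20.0% with PBS and 14.8% with PPE in ORX mice. Kif11, the kinesin that separates spindle poles, was at 3.08%, 3.67%, 4.86% and 4.08%. ORX/PBS was high and sham/PBS low for both, with differences of 0.65 and 0.66 that normexp brought to 0.36 and 0.12. The kinesin Kif20a, at 20.5% on ORX/PBS, was lowest on ORX/PPE, at 14.4%, and the spindle assembly factor Tpx2 had 0.37 between the PBS arrays and -0.37 for PPE in ORX mice. Kif23, a motor of the central spindle, stayed between 26.7% and 29.2% by its brightest probe. Further Kif23 probes went both ways between the PBS arrays, at 0.22 and -0.24.

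The kinetochore and checkpoint genes were mixed, with Cenpf and Cenpe highest on ORX/PBS and Bub1 and Bub1b highest on sham/PPE. Cenpf, a kinetochore protein made in G2, was at 16.0% with PBS and 12.5% with PPE in sham mice, and 23.0% with PBS and 16.1% with PPE in ORX mice. Within each agent the ORX array was higher and within each surgery the PPE array was lower, by 0.53 and 0.37 for ORX and with -0.36 and -0.52 for PPE. Normexp brought these to 0.31 and 0.13 for ORX and to -0.12 and -0.30 for PPE. Its terms in the additive limma fit were 0.45 for ORX, with an SE of 0.13, an unadjusted p of 0.0301 and an adjusted p of 0.598, and -0.44 for PPE, with an adjusted p of 0.848.

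The checkpoint kinase gene Bub1 was at 14.5% with PBS and 17.4% with PPE in sham mice, and 12.2% with PBS and 9.95% with PPE in ORX mice, so the sham arrays were the high ones and ORX under PPE was at -0.81. A dimmer probe of Bub1 read 1.80%, 1.98%, 4.23% and 3.49%, with the ORX arrays high, and put ORX 1.23 above sham under PBS and 0.82 above it under PPE. The direction of Bub1 between ORX and sham is therefore not settled by these arrays, while for PPE both probes had the same signs, 0.26 and 0.13 in sham and -0.30 and -0.28 in ORX mice. Bub1b, whose product BubR1 holds back the anaphase-promoting complex, was at 7.71%, 11.8%, 9.60% and 10.6%. Only its sham/PBS value was low, and PPE in sham mice stood 0.62 above PBS, which normexp brought to 0.39. Cenpe, the kinesin of the kinetochore, had 0.25 between the PBS arrays.

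Set side by side, no member was 2-fold apart in any of the 4 comparisons. Of all genes, 1.27% passed 2-fold upward and 0.427% downward for PPE in sham mice. The shares were 0.707% and 0.366% for PPE in ORX mice. ORX under PBS had 0.598% and 1.26%, and ORX under PPE had 0.323% and 1.42%. A count of 0 among 34 genes is near these shares. At 1.5-fold, Cdk1, Kif11, Nusap1 and Cdc20 were higher for ORX under PBS, 4 of 34 members against 3.24% of all genes, and 0 were lower, against 4.73%. With normexp Cdc20 alone remained, 1 member, and median centring added Birc5 and Cenpf, which made 6. For PPE in sham mice Bub1b alone was higher, against 3.98% of all genes, and 0 members were lower, against 3.37%. For PPE in ORX mice Cdk1 alone was lower, against 1.88%, and 0 were higher, against 2.6%. Under PPE, Bub1 alone was lower in ORX mice, against 3.59%, and 0 were higher, against 1.86%. Under normexp neither Bub1b nor Cdk1 passed 1.5-fold in these comparisons, and Bub1 did not with the mean of its probes.

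Small differences in 1 direction were common to most members in the comparisons that hold the ORX/PBS array. For ORX under PBS, 30 of 34 members were above 0, against 48.9% of all genes, with a median of 0.27 where all genes had -0.01. For PPE in ORX mice, 29 of 34 were below 0, against 49.5% of all genes, with a median of -0.11 where all genes had 0.00. These comparisons share the ORX/PBS array on opposite sides. The PPE difference was lower in ORX than in sham mice for 31 of 34 members, against 53.3% of all genes. In the comparisons without that array the members lay closer to all genes: PPE in sham mice gave 24 of 34 above 0, against 53.9%, and a median of 0.06, and ORX under PPE gave 20 of 34, against 47.2%, and a median of 0.06. The typical SD between probes of the same gene was 0.15 to 0.16, which covers probes on the same pooled RNA and not mice. Single values under that size are not told apart from 0, and larger ones were not tested against the spread between mice.

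**Figure D2:**
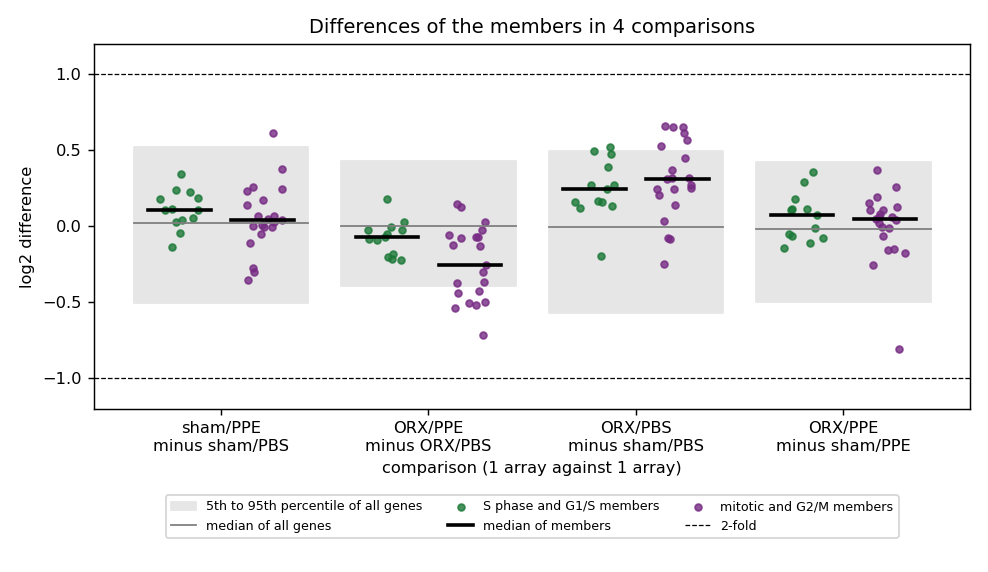
Log2 difference (vertical axis) of each measured member in the 4 comparisons (horizontal axis), with S phase and G1/S members in green and mitotic and G2/M members in purple; black bars are their medians, the grey box spans the 5th to 95th percentile of all genes, and dashed lines mark 2-fold. The medians for ORX under PBS, 0.25 and 0.31, lie above that of all genes, the mitotic median for PPE in ORX mice lies at -0.25, and no point reaches 2-fold.

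The S phase and mitotic members had, with the processed signal, medians of the same sign in each comparison. With that signal the mitotic members, dimmer as a list, varied more between arrays. For ORX under PBS the median was 0.25 over 13 S phase and G1/S members, 12 of them above 0, and 0.31 over 21 mitotic and G2/M members, 18 of them above 0. For PPE in ORX mice the medians were -0.07 and -0.25, with 11 of 13 and 18 of 21 below 0. The S phase median minus the mitotic median was -0.06 and 0.18 in these comparisons with the processed signal. With the mean of a gene's probes it was -0.15 and 0.18. With normexp it was 0.06 and 0.06, which reverses the sign of the first. Normexp brought the mitotic medians to 0.15 for ORX under PBS and -0.12 for PPE in ORX mice, against 0.21 and -0.067 for the S phase members. The median range over the 4 arrays was 0.28 for S phase members, 0.50 for mitotic members and 0.31 for all genes. On sham/PBS the summed signal was 23.3 times the 75th percentile over the 14 S phase members and 6.91 times over the 21 mitotic ones. The ranges were not compared at like signal or under normexp, so brightness and phase are not told apart here. For PPE in sham mice the medians were 0.11 and 0.04, and for ORX under PPE 0.08 and 0.05.

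Mitotic members with and without CHR letters had similar values. Of the 13 mitotic members with CHR letters 8 were highest on ORX/PBS, as were all 4 of those without, and the median difference between the PBS arrays was 0.31 with and 0.41 without them. Kif11, Cdk1 and Cdc20, whose promoters are printed above, carry CHR and CCAAT letters, while Nusap1, with a difference of the same size, has neither. Of the 4 S phase members with E2F letters 3 were highest on ORX/PBS, as were 5 of the 8 without. The median difference between the PBS arrays was 0.38 with and 0.16 without them by the brightest probes. That gap depends on the choice of probe. With the mean of a gene's probes Mcm3, Mcm5, Mcm6 and Mcm7 were at 0.22, 0.50, 0.19 and 0.13, where the median of the S phase members was 0.16.

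Further probes bear on single members and on the S phase median. There were 14 members with 2 or more probes, and for ORX under PBS 14 of 21 further measured probes had the direction of the brightest probe. For PPE in ORX mice it was 14 of 20, for PPE in sham mice 12 of 19 and for ORX under PPE 10 of 19. Taking the mean of a gene's probes in place of the brightest gave a median of the members of 0.25 for ORX under PBS and -0.15 for PPE in ORX mice. With it the medians for ORX under PBS were 0.16 over the S phase members and 0.32 over the mitotic ones, against 0.25 and 0.31 by the brightest probes.

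**Figure D3:**
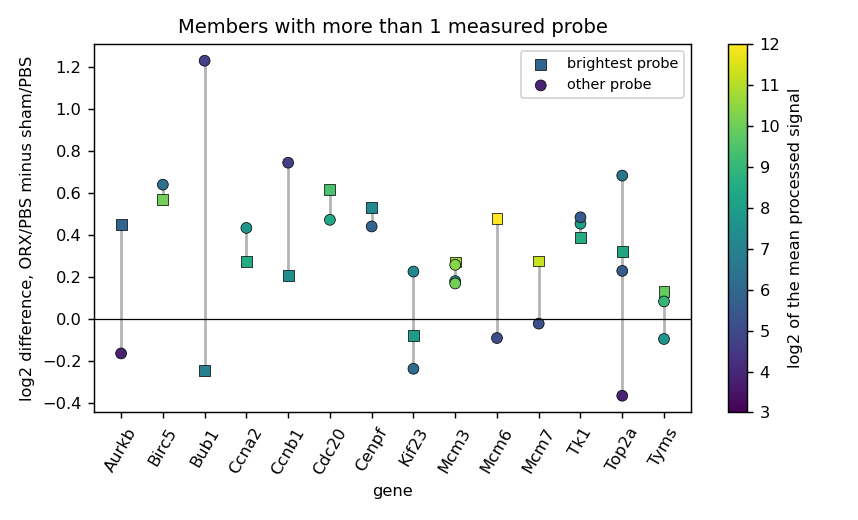
Log2 difference between ORX/PBS and sham/PBS (vertical axis) for each measured probe of the 14 members with more than 1 such probe (horizontal axis); squares are the brightest probe, circles the others, and colour gives the log2 of the mean processed signal. The probes of Bub1 lie farthest apart, at -0.25 and 1.23, and those of Cdc20, Cenpf, Tk1, Birc5, Mcm3, Ccna2 and Ccnb1 all lie above 0.

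Other genes of the replication and division machinery, none of them members, had medians of the same sign in the comparisons that hold ORX/PBS. Of 35 further S phase genes (origin licensing, the GINS complex, polymerases, clamp loaders, chromatin assembly), 24 were above 0 for ORX under PBS, with a median of 0.15, and 23 of 34 measured were below 0 for PPE in ORX mice, with -0.11. Cdt1, which loads the MCM helicase, was at 0.72 and 0.14 in these comparisons, and Gins1, a subunit that activates it, at 0.71 and -0.15. The clamp loader subunit Rfc5 went the other way for ORX under PBS, at -0.61. Of 43 further mitotic genes measured for ORX under PBS 36 were above 0, with a median of 0.23, and of 44 measured for PPE in ORX mice 34 were below 0, with -0.16. Cdc25c, the phosphatase that activates Cdk1, had the widest swing at 1.03 and -1.08, and these were the only values of that list past 2-fold. The condensin subunit Ncapg was at 0.75 for ORX under PBS, and the outer kinetochore gene Ndc80 at -0.63.

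Lists of regulators and of p53 target genes had medians near 0 in part of these comparisons. The 18 G1 cyclins, G1 kinases and pocket proteins had medians of -0.01 for ORX under PBS, with 9 above and 9 below 0, and -0.10 for PPE in ORX mice, with 14 below 0. The 7 inhibitors of cyclin-dependent kinases had medians of 0.20 and -0.05. Their best known member, Cdkn1a, which encodes p21 and holds cells in G1, was farthest from 0 in both. It stood at -1.42 for ORX under PBS and 0.80 for PPE in ORX mice. Cdkn2a had the same signs, at -0.21 and 0.80. Of the 7 inhibitors, 5 were above 0 for ORX under PBS. The 18 target genes of p53 had medians of -0.05 and 0.13, with Gdf15 at -0.69 and 1.42.

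Markers of other cell types differed between the same arrays, and their part in the values above was not tested. For ORX under PBS, 8 of 9 B cell markers were above 0 with a median of 0.66, 7 of 8 T cell markers with 0.42, and all 8 markers of monocytes and interstitial macrophages with 0.49. For PPE in ORX mice these medians were 0.03, -0.08 and -0.07. Mature neutrophil markers had medians of 0.65 and 0.36 in these comparisons. The 9 endothelial markers had a median of -0.28 in that comparison, with 6 below 0, and 0.05 for ORX under PBS. Summed over its markers, in units of the 75th percentile, the B cell signal was 11.8 with PBS and 17.7 with PPE in sham mice, and 22.3 with PBS and 24.1 with PPE in ORX mice, and the T cell signal 10.67, 11.9, 13.3 and 12.4. The B cell sum was thus highest on ORX/PPE, and the T cell sum, like most members, on ORX/PBS. Monocyte, alveolar macrophage and mature neutrophil sums were lowest on sham/PBS too, at 90.4, 61.9 and 82.8, and highest on sham/PPE, ORX/PPE and sham/PPE, at 115, 136 and 174.

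Cell types that divide outside the lung were looked for with further markers. The thymocyte genes Rag1, Rag2 and Ptcra were not well above background on any array. The 6 measured genes of germinal centre B cells and plasmablasts had a median of 0.08 for ORX under PBS. The 3 measured thymocyte genes, Dntt, Cd1d1 and Themis, spread from -0.01 to 0.75 in that comparison, with a median of 0.31. The 10 erythroid precursor markers had a median of 0.02 for ORX under PBS, with 5 above and 5 below 0. Of the 10 neutrophil precursor markers, 9 were well above background on ORX/PBS and 6 on sham/PBS. The 6 measured on both had a median of 0.01, with 3 above and 3 below 0. Prtn3, Ctsg and Ngp were well above background on ORX/PBS but not on sham/PBS, and were higher by at least 0.69, 0.25 and 0.65. Ms4a3 was not well above background on any array. The summed germ cell markers were 0.332, 2.89, 0.309 and 0.305, high on sham/PPE, an array on which 3 of the 34 members were highest, against 26.0% of all genes. Sums of cardiac muscle markers, at 68.8, 146, 55.8 and 27.9, and of brown fat markers, at 13.1, 32.7, 14.7 and 11.0, were highest on that array too. For PPE in ORX mice 9 of 9 cardiac markers were below 0, with a median of -0.96, and 5 of 6 measured brown fat markers, with -0.37, the direction of most members, and for ORX under PBS their medians were -0.25 and -0.26. The part of these tissues in the members' values was not tested. Lung epithelial markers had a median of -0.09 for ORX under PBS and sums from 2206 on ORX/PBS to 2518 on sham/PBS.

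**Figure D4:**
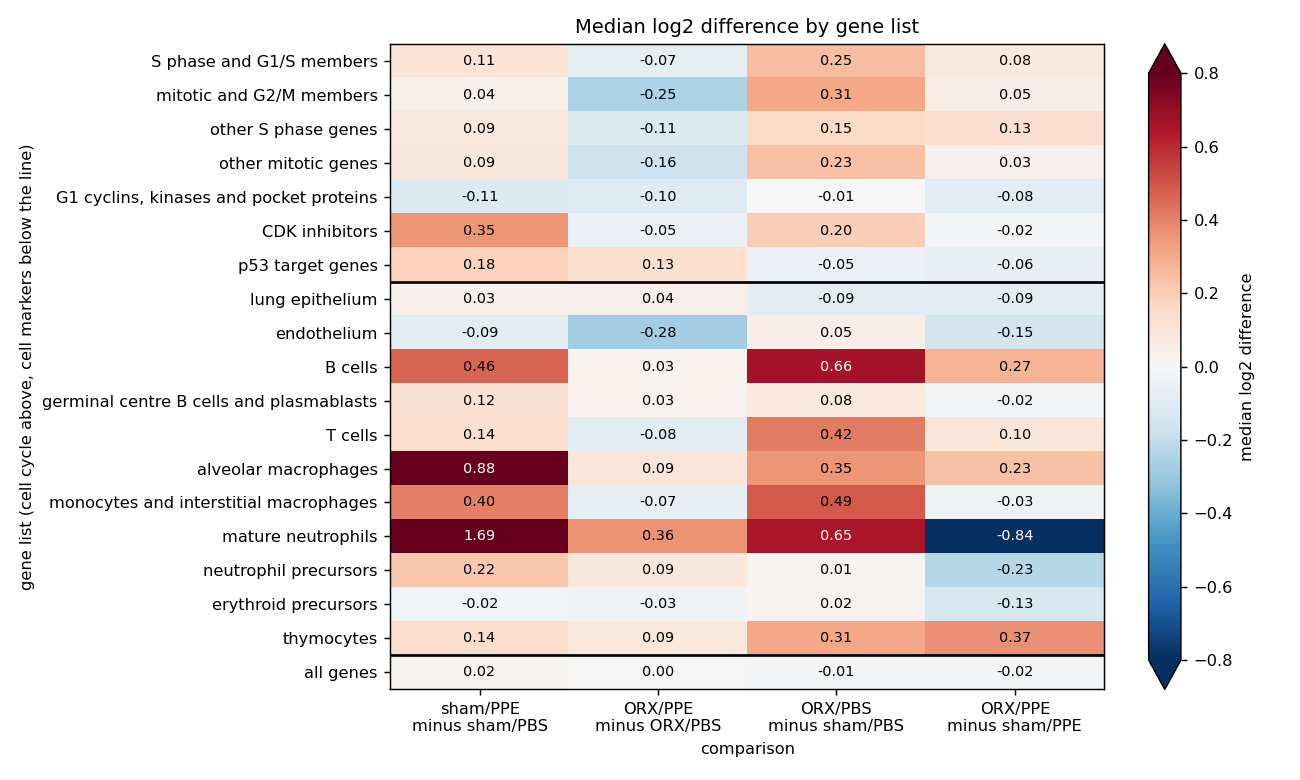
Median log2 difference of gene lists (rows) in the 4 comparisons (columns), printed in each cell and coloured from blue (below 0) to red (above 0). Cell cycle lists are above the first black line, cell type markers below it and all genes in the last row. The lists of germ cells, cardiac muscle and brown fat are left out of the figure. The S phase, mitotic, B cell, T cell, macrophage and neutrophil lists are above 0 for ORX under PBS, and the mitotic list is at -0.25 for PPE in ORX mice where B cell markers are at 0.03.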

How the data were processed

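Lung RNA was hybridised to 4 arrays of Agilent design 074809 on 1 slide, and the scans were read with Agilent's Feature Extraction, whose version is 10.7.1.1 in the headers and 9.5.1.1 in the submitters' processing notes. The processed signal is a linear intensity with background subtracted and no scaling between arrays, per the file headers. The series' deposited value table holds linear intensity values close to a quantile normalization of these files. The members and gene lists were chosen with earlier results of these data known. Control and outlier spots (31, 40, 54 and 46 of 59305) were left out, spots of a probe averaged, log2 taken and each array's 75th percentile subtracted. Of 56605 probes, 10293 had no gene name, and others were named through GRCm38.p6 tables or the file. Probe coordinates are on mm9. A difference needed the brightest probe well above background on both arrays. Any member may be named, and of the other lists at most the 4 highest and 4 lowest per comparison. The additive fit of surgery and agent used limma 3.58.1 in R 4.3.3, on genes above background on at least 2 arrays, and was tested on simulated data, where 9 of 20456 unaltered genes were called. It assumes no interaction. Other steps used Python 3.11.15. Precision is limited by the number of arrays. Alternatives were normexp (offset 50), quantile normalization, median centring, other filters, the mean of probes, the value table and a 1.5-fold threshold.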

Additional observations from a re-analysis of the deposited data

Results flagged for a closer look

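The medians of the members for PPE against PBS lay on opposite sides of 0 in the 2 surgeries, which singled them out for another look. Over the S phase and G1/S members the median was 0.11 in sham and -0.071 in ORX mice, over the mitotic and G2/M members 0.043 and -0.25, and over all 34 measured members 0.064 and -0.11. The PPE difference was lower in ORX than in sham mice for 31 of the 34 members (12 of 13 S phase and 19 of 21 mitotic), against 53.3% of all genes, by a median of 0.22. With 1 array in each group this difference between surgeries was not tested. The sham difference holds the sham/PBS array and the ORX difference the ORX/PBS array, which were the lowest and the highest array for most members. Across the diagonal of the design, ORX/PPE minus sham/PBS had a median of 0.12 over the members.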

How the results depend on the processing

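Each comparison rests on 1 array a group, and for dim genes on the background correction. The 56 list medians under other settings moved by less than the SD between probes of a gene, but with normexp the mitotic medians went from 0.31 to 0.15 for ORX under PBS and from -0.25 to -0.12 for PPE in ORX mice. The mitotic median for ORX under PPE alone changed sign, from 0.05 to -0.0003 with normexp. Of 952 values of single members 35 moved by more than that SD, 37 had the other sign, and 1 called value reversed: Bub1 for ORX under PPE, -0.81 by its brightest probe, was 0.0045 as the mean of its probes. Members 2-fold apart numbered 0 throughout, except that without a filter on dim probes Ccne2 made 1 for PPE in sham and 1 in ORX mice. A 1.5-fold threshold gave 1 and 1 for these, 4 for ORX under PBS and 1 for ORX under PPE. Combined with normexp, a setting chosen after seeing the data, that threshold gave 0, 0, 1 and 1. With normexp the limma fit called 5 genes for PPE and 5 for ORX in place of 0, none a member. No paired analysis was possible because each group has 1 array and the labels give no shared replicate numbers.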
